A study of Homo sapiens with 11 samples.

Results

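CTCF binding was examined at 56 genes for developmental transcription factors, members of the PAX, SOX, GATA, TBX, FOX, LHX, DLX, MEIS, NKX2, EBF and RUNX families with SIX2, SIX3, WT1 and SALL1. They were taken by symbol from the 19970 protein-coding genes of RefSeq on chromosomes 1 to 22 and X, and a CTCF summit counted for a gene if it lay inside the gene body or within 10 kb of it. All 56 symbols matched. Summits came from CUT&RUN, in which an antibody-tethered nuclease frees the DNA around a bound protein, in HCT116 p53-/- cells, which come from a human colon tumour and lack p53. The ORC2 deletion cells were a single CRISPR/Cas9 clone of that line that lacks ORC2, part of the protein complex that marks replication origins. The ORC2 rescue cells were selected as clones after ORC2 had been put back on the plasmid pLHCX. The WT cells were the parental HCT116 p53-/- line, so every group lacks p53.

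Factors of these families bind DNA through paired, HMG, zinc finger, T-box, forkhead, homeodomain, Runt or related domains and set the identity of tissues in the embryo. In an adult cell of one lineage most of them are silent, often under Polycomb, while a few stay active, such as GATA6, FOXA1 and SOX9 in gut epithelium. CTCF is a zinc finger protein that stops cohesin and so bounds chromatin loops, and binding sites of it often flank developmental genes and separate them from neighbouring enhancers. The lists hold no expression, so whether any of these genes was active or silent here was not measured.

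Each genotype had 1 deposited CTCF list and 2 CTCF libraries, and no list names a replicate. No spread between replicates can therefore be given, and no difference below was tested. The lists held 31112 summits in ORC2 deletion, 20810 in ORC2 rescue and 19044 in WT cells, and the read depth behind them is unknown. Each summit carries the peak caller's −log10 q, the authors' own value, used here only to describe or rank summits within a list. Ranks in lists of different length show no change. The IgG lists, which give the background, had 34, 33 and 17 summits, and 0 of them lay in a window of the 56 genes. The nearest IgG summit to any CTCF summit described here was 6.59 Mb away. Inside ORC2 itself there were 2 IgG summits in ORC2 deletion, 2 in ORC2 rescue and 0 in WT. The deletion itself cannot be read from summits.

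Short stretches of sequence are shown first for the start sites that had a CTCF summit nearby and held a match to the CTCF core. These are the places where the lists can be read against the DNA. The core was searched as CCNNNAGNNGGC on both strands, from 250 bases before to 50 bases after each RefSeq start site (GRCh38.p14). A match was present at 10.6% of all 35116 listed start sites. It was present at 21.9% of those with an ORC2 deletion summit within 500 bp of the window, at 25.2% of those with an ORC2 rescue summit and at 23.9% of those with a WT summit. Of the 56 genes, 38 had a start site in the table, 74 sites in all, and 11 of these sites held a match (14.9%). Of the 74, 7 had a CTCF summit within 500 bp of the searched bases, and 2 of the 7 held a match, those of FOXA3 and PAX2. The FOXA3 match lies on the plus strand at chr19:45864200-45864229 and the PAX2 match on the plus strand at chr10:100745376-100745405. Capitals mark the core.
FOXA3: cctggcgatCCCGCAGGGGGCgccccagtc
PAX2: ccctgccctCCCCTAGCCGGCaccggagtg
The centre of the FOXA3 match lay 24 bp from an ORC2 deletion summit, 90 bp from a WT summit and 14945 bp from the nearest ORC2 rescue summit. That ORC2 deletion summit was weak, with a −log10 q of 2.96, and the WT summit had 5.67. The centre of the PAX2 match lay 156 bp from an ORC2 deletion summit, 228 bp from an ORC2 rescue summit and 1597 bp from the nearest WT summit.

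Matches of the same letters also stood at start sites with no summit nearby, and 3 of these are shown for contrast. The SOX1 match is on the minus strand at chr13:112067068-112067097, 1 of the 2 GATA2 matches on the plus strand at chr3:128488705-128488734 and the PAX6 match on the plus strand at chr11:31807679-31807708.
SOX1: gcaggggggCCTGCAGGGGGCgattacggt
GATA2: ggggggggtCCCCGAGGTGGCctctggtga
PAX6: tcgacaaagCCGACAGACGGCaaacaatgg
The nearest ORC2 deletion summit was 442998 bp from the SOX1 match, 49893 bp from the GATA2 match and 63636 bp from the PAX6 match. The letters alone thus did not mark where a summit was called.

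Across the 56 genes the ORC2 deletion list had 83 summits (95% Poisson interval 66.1 to 103), the ORC2 rescue list 51 (38.0 to 67.1) and the WT list 49 (36.3 to 64.8). These intervals cover counting error only, as do those of the ratios, which treat the summits of the 2 lists as independent. ORC2 deletion over WT was 1.69 (exact interval 1.18 to 2.46) at these genes and 1.63 over the whole lists. ORC2 rescue over WT was 1.04 (0.689 to 1.57) at these genes and 1.09 over the whole lists. The developmental factor genes thus followed the lengths of the lists. The windows covered 6.80 Mb and held 12.2 ORC2 deletion, 7.50 ORC2 rescue and 7.20 WT summits per Mb. Windows of all protein-coding genes held 14.4, 9.63 and 8.79 per Mb.

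At least 1 list had a summit at 40 of the 56 genes, 71.4% against 67.1% of all protein-coding genes. ORC2 deletion had one at 39 genes (69.6% against 63.7%), ORC2 rescue at 33 (58.9% against 52%) and WT at 32 (57.1% against 50.5%). More ORC2 deletion than WT summits were found at 23 genes, 41.1% against a background of 37.6%. Fewer were found at 4 genes, 7.14% against 4.27%. A surplus of at least 2 ORC2 deletion summits was found at 10 genes, 17.9% against 12.6%. ORC2 rescue had more summits than WT at 10 genes, 17.9% against 18.1%, and fewer at 6 genes, 10.7% against 13%. ORC2 deletion had more summits than ORC2 rescue at 23 genes, 41.1% against 35%, and fewer at 1, 1.79% against 4.6%. ORC2 deletion and ORC2 rescue were each set against the same WT list. With 56 genes, each of these shares was within a few genes of its background.

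**Figure D1:**
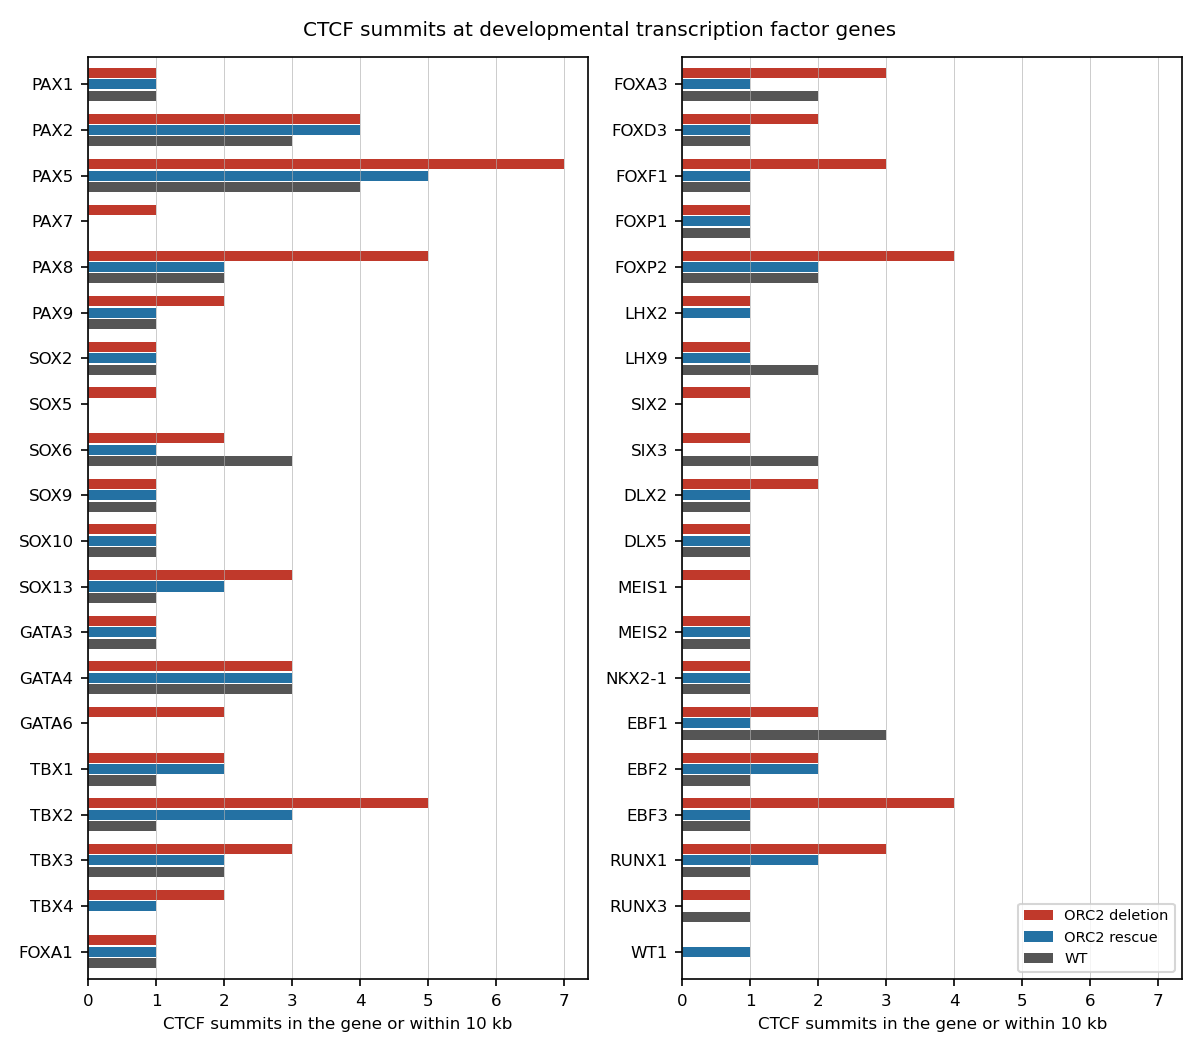
Number of CTCF summits (x axis) inside or within 10 kb of each of the 40 genes with a summit in any list, for ORC2 deletion (red), ORC2 rescue (blue) and WT (grey). PAX5 has the most, with 7, 5 and 4; WT1 has a summit in ORC2 rescue only.

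Gene length moved with these counts. Gene bodies ran from 2512 bp for SOX2 to 1033147 bp for SOX5, with a median of 21665 bp, against 24190 bp over all protein-coding genes. Among the 27 genes under 20 kb, 7 had more ORC2 deletion than WT summits (25.9%), against 26.4% of all protein-coding genes of that length. Among the 17 genes of 20 to 100 kb, 8 did (47.1%), against 40.2%. Among the 12 genes of 100 kb or more, 8 did (66.7%), against 61.4%.

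Summits were joined into 1 site where neighbours lay within 500 bp, which gave 90 sites at the 56 genes. Of the 49 sites with a WT summit, 45 also had an ORC2 deletion summit (91.8%, 95% Wilson interval 80.8 to 96.8), against 89.6% of all such sites in the genome. An ORC2 rescue summit was found at 38 of the 49 (77.6%, 64.1 to 87.0), against 76.4% of all. Of the 39 sites with an ORC2 deletion summit and no WT summit, 12 had an ORC2 rescue summit (30.8%, 18.6 to 46.4), against 32.2% of all. CTCF sites of WT cells at these genes were thus mostly still called without ORC2, and most of the added ones had no ORC2 rescue summit, at shares close to those of the genome as a whole. With lists of equal length the share of added sites with an ORC2 rescue summit was 46.7% (7 of 15 sites), against 50.2% of all such sites.

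**Figure D2:**
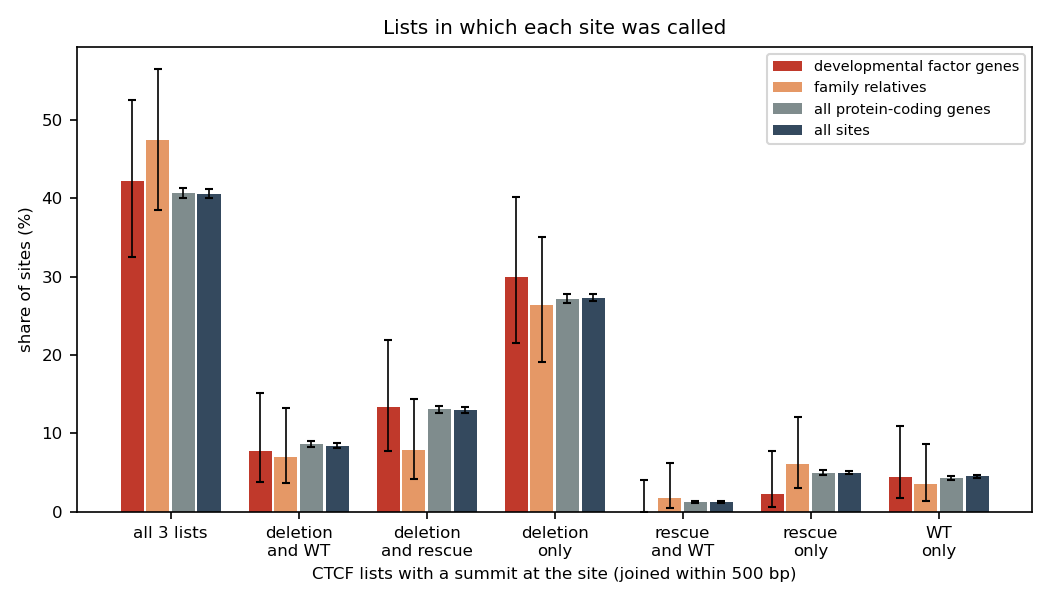
Share of sites (y axis, %) by the lists that had a summit there, for the 90 sites of the developmental factor genes, the 114 sites of their family relatives, the sites of all protein-coding genes and all sites; bars carry 95% Wilson intervals. Sites in all 3 lists make up 42.2% and sites of ORC2 deletion alone 30% at the developmental factor genes, and each interval there holds the share of all sites.

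Sites called in all 3 lists numbered 38, 42.2% of the 90 sites against 40.6% of all, at 29 genes. The site with the highest ORC2 deletion value lay at the window edge of SIX3, a forebrain and eye factor on chromosome 2, with −log10 q of 50.2 in ORC2 deletion, 25.3 in ORC2 rescue and 18.1 in WT. Its WT summit was 9944 bp from the gene, and its ORC2 deletion and ORC2 rescue summits fell beyond 10 kb and are not among the 83 and 51. At FOXF1, a factor of lung and gut mesenchyme, a site 4793 bp outside the gene on chromosome 16 had −log10 q of 43.0 in ORC2 deletion, 23.1 in ORC2 rescue and 24.0 in WT. At SOX13 on chromosome 1, a SOXD gene, a site just outside the gene had 31.7 in ORC2 deletion, 25.3 in ORC2 rescue and 17.6 in WT. Inside SOX6 on chromosome 11, which acts in cartilage, a site had 28.4 in ORC2 deletion, 22.4 in ORC2 rescue and 25.1 in WT. The FOXF1, SOX13 and SOX6 summits ranked 479, 1075 and 1442 of 31112 in ORC2 deletion.

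GATA4, a heart and endoderm factor on chromosome 8, had the same 3 sites in every list. At 11736610 (hg38) the values were 25.1 in ORC2 deletion, 20.04 in ORC2 rescue and 10.3 in WT. At 11746604 they were 23.7, 10.7 and 15.6, and at 11765444 they were 18.1, 21.6 and 14.8 in the same order. No value was below 10 in any list, and GATA4 had 0 up and 0 down regions.

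A single site in all 3 lists, and nothing else, was found at 10 genes, PAX1, SOX2, SOX9, SOX10, GATA3, FOXA1, FOXP1, DLX5, MEIS2 and NKX2-1. The share of all protein-coding genes with this pattern was not counted. At SOX9, which acts in cartilage, testis and intestinal crypts, the site lay 2119 bp outside the gene with values of 24.5 in ORC2 deletion, 20.9 in ORC2 rescue and 11.9 in WT. At FOXA1, a pioneer factor of endoderm, the 3 summits lay 713 bp, 711 bp and 715 bp downstream of the start site, with values of 16.6, 17.1 and 7.73 in ORC2 deletion, ORC2 rescue and WT. The FOXA1 summits were within 4 bp of each other, at 37594536, 37594538 and 37594534 on chromosome 14. At NKX2-1, a thyroid and lung factor, the values were 20.2 in ORC2 deletion, 3.86 in ORC2 rescue and 9.46 in WT. At PAX1, a factor of the sclerotome, the site had 15.7 in ORC2 deletion, 14.6 in ORC2 rescue and 4.85 in WT.

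PAX5, the B cell identity factor on chromosome 9, had 7 summits in ORC2 deletion, 5 in ORC2 rescue and 4 in WT, the most of the 56 genes. Its 4 sites in all lists were inside the gene, and the first 2 had ORC2 deletion values of 24.6 and 21.4, ORC2 rescue values of 8.41 and 16.0 and WT values of 4.28 and 11.6. PAX2, which acts in kidney, eye and ear, had 4 summits in ORC2 deletion, 4 in ORC2 rescue and 3 in WT. Its upstream site, 6107 bp outside the gene, had values of 18.2 in ORC2 deletion, 16.1 in ORC2 rescue and 12.7 in WT. Inside PAX8, a thyroid and kidney factor, a site had 17.7 in ORC2 deletion, 12.9 in ORC2 rescue and 12.9 in WT. At FOXA3, an endoderm factor, a site 9703 bp outside the gene had 9.79 in ORC2 deletion, 10.5 in ORC2 rescue and 14.5 in WT, with the summit at the same base in every list.

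**Figure D3:**
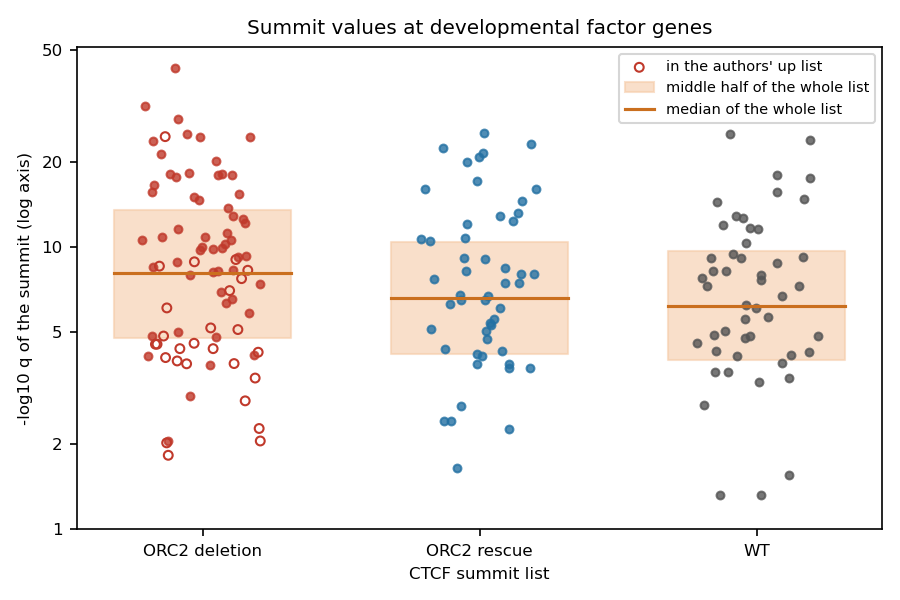
The −log10 q of every summit at the developmental factor genes (y axis, log scale) in the ORC2 deletion, ORC2 rescue and WT lists, with the middle of each whole list (quartiles, shaded) and its median (line); open circles are ORC2 deletion summits in the authors' up list. The open circles sit mostly under the median of the deletion list, and 1 of them, inside EBF3, stands high at 24.6.

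Summit values at these genes were close to those of the lists. The median −log10 q was 8.55 for the 83 ORC2 deletion summits against 8.06 for that list, 7.44 for the 51 ORC2 rescue summits against 6.58, and 7.25 for the 49 WT summits against 6.18. Summits inside the gene body were 44.6% in ORC2 deletion, 45.1% in ORC2 rescue and 44.9% in WT.

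The authors' deposited up list named regions at 20 of the 56 genes, 35.7% against 30.7% of all protein-coding genes, and the down list at 0, against 1.72%. At 7 genes it named 2 regions, 12.5% against 7.97%, and at 13 genes it named 1. The 27 up sites made up 30% of the 90 sites, against 27.6% of all sites; the down list took 0 of the 90 sites, which allows up to 4.09% by the Wilson interval, against 1.05% of all. How the up and down lists were made is not stated. Each of the 27 was a site of ORC2 deletion alone, so the lack of an ORC2 rescue summit there is no separate result. The median value of these up summits was 4.52, and that of the remaining 56 ORC2 deletion summits at these genes 10.7, and 22 of the 27 lay below the median of the deletion list. Over all up regions in the genome the median was 4.34. Inside the gene body lay 13 of the up summits, and outside it 14.

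The genes with 2 up regions were PAX5, PAX8, GATA6, TBX2, FOXF1, FOXP2 and EBF3. EBF3, which acts in neurons and muscle, held the strongest of all 27, inside the gene on chromosome 10 at 129889241 with a value of 24.6. It ranked 2137 in the deletion list, the only one of the 27 in the upper 25% of that list. The gene's other up summit had a value of 3.85. In all, EBF3 had 4 summits in ORC2 deletion, 1 in ORC2 rescue and 1 in WT. The ORC2 rescue summit, outside the gene, was weak at 1.64, and the WT summit had a value of 3.32.

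GATA6, a factor of heart and of endoderm including gut epithelium, had 2 summits in ORC2 deletion and 0 in both ORC2 rescue and WT. Its summits lay 413 bp and 976 bp upstream of the start site on chromosome 18, with values of 6.08 and 3.43. The second of them also lies in GATA6-AS1, an antisense RNA gene. Both are weak, with ranks of 19788 and 27211 of 31112.

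At TBX2, a T-box repressor on chromosome 17, the lists had 5 summits in ORC2 deletion, 3 in ORC2 rescue and 1 in WT, the widest gap between ORC2 deletion and WT of the 56 genes. The site in all 3 lists, 2986 bp outside the gene, had values of 12.5 in ORC2 deletion, 10.7 in ORC2 rescue and 8.21 in WT. The 2 up summits had values of 7.004 and 1.83. The weaker up summit lay 913 bp from the WT summit, so it stands as a separate site only with joining within 500 bp or less. Another 2 sites had summits in ORC2 deletion and ORC2 rescue and none in WT. The stronger of them, 9590 bp outside TBX2 and inside BCAS3, had values of 18.04 in ORC2 deletion and 8.19 in ORC2 rescue.

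PAX8 had 5 summits in ORC2 deletion, 2 in ORC2 rescue and 2 in WT, and both of its up summits were inside the gene with values of 4.36 and 4.24. FOXP2, a factor of the brain circuits for speech, had 4 in ORC2 deletion, 2 in ORC2 rescue and 2 in WT, with up summits of 4.05 and 4.83 inside the gene. FOXF1 had 3 in ORC2 deletion, 1 in ORC2 rescue and 1 in WT, with up summits of 8.27 and 3.94 outside the gene. In PAX5 the up summits had values of 8.86 and 4.52. At all 4 of these genes the up summits were weaker than the strongest site in all 3 lists of the same gene.

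**Figure D4:**
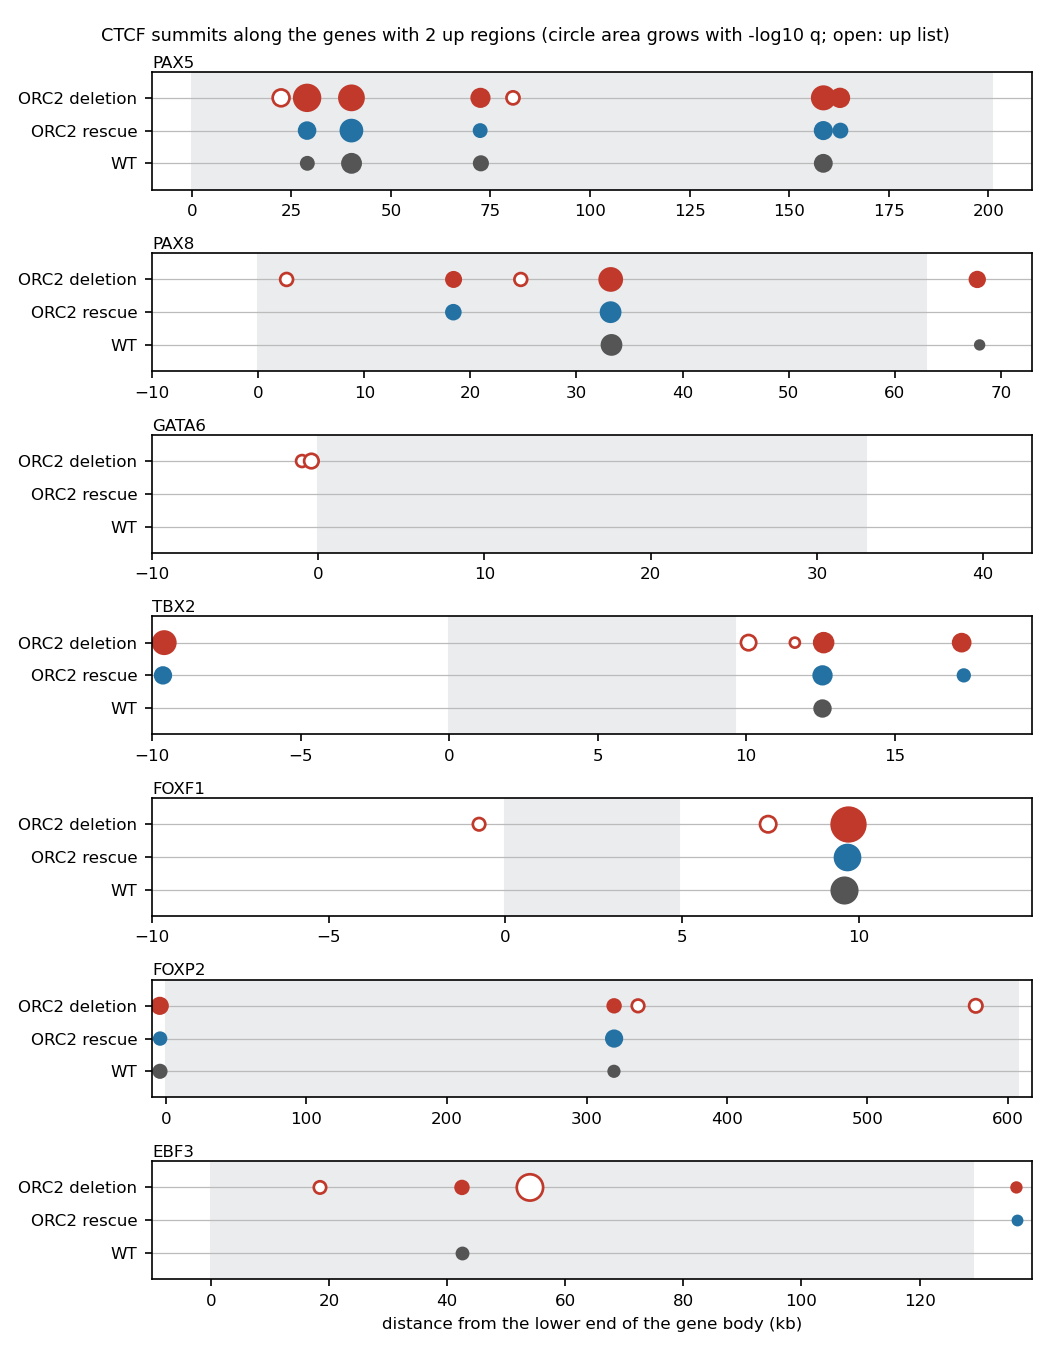
Positions of CTCF summits along the 7 genes with 2 up regions, as distance in kb from the lower end of the gene body (shaded), with ORC2 deletion above ORC2 rescue and WT. Circle area grows with −log10 q and open circles are in the up list; at GATA6 the only circles are the 2 open ones next to the gene, and at EBF3 the largest circle is open.

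The genes with 1 up region were PAX7, SOX5, SOX6, SOX13, TBX3, TBX4, FOXA3, FOXD3, SIX2, DLX2, MEIS1, EBF2 and RUNX1. The highest of these values were 9.03 at SOX13, 8.55 at FOXD3, a neural crest factor, and 7.72 at TBX3, which acts in limb and breast. The value was 5.16 at SIX2, a factor of kidney progenitors, 5.10 at EBF2, of brown fat and neurons, and 4.56 at PAX7, of muscle stem cells. It was 4.52 at RUNX1, a blood stem cell factor with 3 summits in ORC2 deletion, 2 in ORC2 rescue and 1 in WT. It was 4.36 at SOX6 and 3.86 at TBX4, a hindlimb factor with 2 summits in ORC2 deletion, 1 in ORC2 rescue and 0 in WT. The lowest values were 2.85 at FOXA3, 2.27 at MEIS1, 2.05 at SOX5 and 2.02 at DLX2, a forebrain factor. At PAX7, SOX5, SIX2 and MEIS1, a HOX cofactor, the up summit was the only summit in any list. With GATA6, 5 of the 56 genes had summits in ORC2 deletion alone. The share of all protein-coding genes with summits in ORC2 deletion alone was not counted. A single summit of this kind is a small count, with a Poisson interval of 0.0253 to 5.57.

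Sites with ORC2 deletion and ORC2 rescue summits and none in WT numbered 12, 13.3% of the 90 sites against 13.0% of all sites, at 11 genes. After TBX2, the highest was inside SOX13, with values of 14.6 in ORC2 deletion and 4.17 in ORC2 rescue. Inside TBX1, a factor of the pharyngeal arches, a site had 11.6 in ORC2 deletion and 2.27 in ORC2 rescue. In PAX5 such a site had 10.8 in ORC2 deletion and 5.27 in ORC2 rescue. The others were at PAX2, PAX8, PAX9, TBX4, LHX2, EBF3 and RUNX1. At LHX2, a forebrain and eye factor, it was the only site, with 8.25 in ORC2 deletion and 8.02 in ORC2 rescue.

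At PAX2 the site lay at an internal start site of the gene, next to the core match printed above, 35 bp upstream in ORC2 deletion with a value of 8.15 and 37 bp downstream in ORC2 rescue with 4.34. Sites in ORC2 deletion and WT but not ORC2 rescue numbered 7, 7.78% of the 90 sites against 8.43% of all, at PAX8, PAX9, FOXA3, SIX3, EBF1, EBF3 and RUNX3. RUNX3, which acts in T cells and stomach, had 1 such site and no other, with 10.0 in ORC2 deletion and 11.6 in WT.

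Sites of WT alone numbered 4, at 3 genes, 4.44% of the 90 sites against 4.49% of all. SOX6 held 2 of them, with values of 4.89 and 4.11, and so had 2 summits in ORC2 deletion, 1 in ORC2 rescue and 3 in WT. EBF1, a B cell factor, had 2 in ORC2 deletion, 1 in ORC2 rescue and 3 in WT, the one of WT alone at 1.56. LHX9, a gonad factor, had 1 in ORC2 deletion, 1 in ORC2 rescue and 2 in WT, the one of WT alone at 6.205, 97 bp upstream of a start site. SIX3 had 1 in ORC2 deletion, 0 in ORC2 rescue and 2 in WT, because the site in all 3 lists described above straddles the edge of its window. Sites of ORC2 rescue alone numbered 2, 2.22% of the 90 against 5.00% of all. They were at EBF2, with a value of 2.42, and at WT1, a kidney and gonad factor, with 5.14. No site had summits in ORC2 rescue and WT without one in ORC2 deletion, 0 of 90, against 1.18% of all sites.

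Summits at start sites could be read for the 38 genes with a listed start. Within 1 kb of one lay 8 of 62 ORC2 deletion summits, 3 of 36 ORC2 rescue summits and 5 of 35 WT summits. The same share over the whole lists was not counted, so these counts have no background. Those of ORC2 deletion were at PAX2, PAX9, GATA3, FOXA1, FOXA3 and DLX2, with 1 each, and at GATA6 with 2. At GATA3, a T cell factor, all lists had the summit, 287 bp, 295 bp and 231 bp upstream in ORC2 deletion, ORC2 rescue and WT, with values of 13.7, 12.3 and 9.11. At FOXA3 the summit 135 bp upstream had a value of 2.96 in ORC2 deletion, and the one 201 bp upstream had 5.67 in WT.

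The bases around 3 summits that 1 list alone had near a start site are shown to let them be compared with the core matches above. They are 30 bases of the plus strand with the summit base in capitals, at chr2:172102898-172102927 for DLX2 (ORC2 deletion, value 2.02, 13 bp upstream of the start site), chr18:22169161-22169190 for GATA6 (ORC2 deletion, value 6.08) and chr1:197915962-197915991 for LHX9 (WT).
DLX2: tctgccaggcgggctCctgaagtgtgggca
GATA6: ctggatgggtgcgggTcgctagccaggtca
LHX9: gtctgcggccgggcgGctcttgtgaggtat
G and C made up 20 of the 30 bases in each, and no listed start site of DLX2, GATA6 or LHX9 held a core match. The summit is 1 base of a wider peak, so the absence of the letters from these stretches says nothing about CTCF.

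No list had a summit at 16 genes: PAX3, PAX6, SOX1, SOX8, SOX11, SOX17, GATA2, GATA5, TBX5, FOXA2, LHX1, LHX6, DLX1, DLX6, NKX2-5 and SALL1. From these genes the nearest ORC2 deletion summit was between 13239 bp away, at DLX1, and 1070563 bp away, at SOX11. Within 50 kb there was an ORC2 deletion summit for 7 of the 16, an ORC2 rescue summit for 7 and a WT summit for 6. The same shares over all protein-coding genes without a summit were not counted. For PAX6, the eye factor, the nearest ORC2 deletion summit was 53369 bp and the nearest WT summit 53335 bp away.

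By family, ORC2 deletion, ORC2 rescue and WT summits numbered 20, 13 and 11 at the 8 PAX genes, 9, 6 and 7 at the 10 SOX genes, and 14, 7 and 8 at the 7 FOX genes. The 5 TBX genes had 12, 8 and 4, and 4 of them had more in ORC2 deletion than in WT. The 3 EBF genes had 8, 4 and 5, and the 5 GATA genes 6, 4 and 4. The LHX, DLX, MEIS, NKX2 and RUNX families, and SIX2 with SIX3, had 4 or fewer summits in any list. These counts are too small to rank the families.

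A chosen list of 88 relatives of these families serves as a comparison, with TGIF1, TGIF2, PKNOX1 and PKNOX2 placed beside the MEIS genes. The 88 genes had 101 summits in ORC2 deletion, 72 in ORC2 rescue and 69 in WT, so that ORC2 deletion over WT was 1.46 (exact interval 1.07 to 2.02). More ORC2 deletion than WT summits were found at 27 of the 88 (30.7%, against 37.6% of all protein-coding genes), and fewer at 3 (3.41%, against 4.27%). Up regions were found at 23 (26.1%, against 30.7%). The relatives were shorter, with a median gene body of 8365 bp against 21665 bp for the developmental factor genes. Since gene length moved with these counts, the shares of the 2 gene sets are not like for like. FOXN3 had 3 up regions, with 5 summits in ORC2 deletion, 2 in ORC2 rescue and 2 in WT. TGIF1, a homeodomain repressor, had 3 too, and all 3 of its summits were in ORC2 deletion. FOXI1, of ear and kidney, was the one relative with a down region, with 0 in ORC2 deletion, 1 in ORC2 rescue and 1 in WT. The ratio at the developmental factor genes was 1.69 (1.18 to 2.46). Both intervals treat the 2 counts as independent, though 45 of the 49 WT sites at the developmental factor genes also had an ORC2 deletion summit. Whether the 2 ratios differ was not tested.

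Holding the lists to equal length sets the ratio over the whole lists to 1 by construction. It therefore cannot show what the surplus of ORC2 deletion summits depends on. With each list held to its 19044 highest values, the 56 genes had 53 summits in ORC2 deletion, 47 in ORC2 rescue and 49 in WT, and ORC2 deletion over WT was 1.08. The lowest −log10 q kept was 6.42 in ORC2 deletion, 2.71 in ORC2 rescue and 1.31 in WT. These counts thus rest on unlike cut-offs. More ORC2 deletion than WT summits were then found at 10 genes, against 13.7% of all protein-coding genes, and fewer at 8, against 14.9%. With a fixed minimum of 10 for −log10 q instead, the counts were 33, 17 and 13 and the ratio 2.54, against 2.76 over the whole lists. The 10 genes with more under equal lengths also had more in the full lists: PAX2, PAX5, PAX8, SOX13, TBX1, TBX2, TBX3, FOXD3, FOXF1 and LHX2. TBX2 again had the widest gap, with 4 in ORC2 deletion, 3 in ORC2 rescue and 1 in WT. GATA6 had 0 in every list of equal length, and EBF3 had 1, 0 and 1. The GATA6 summits, at 6.08 and 3.43, fell below the cut-off for ORC2 deletion, which was stricter than that for WT.

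**Figure D5:**
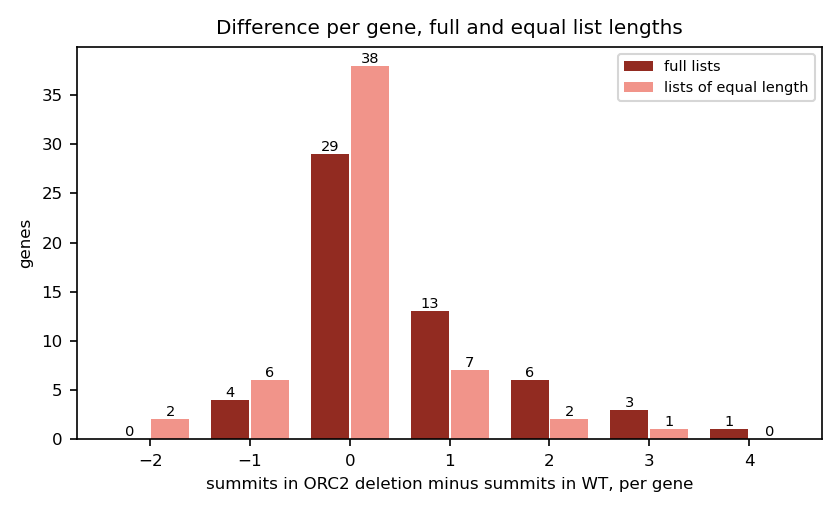
Number of genes (y axis) by the summits in ORC2 deletion minus the summits in WT at each of the 56 genes (x axis), for the full lists and for lists of equal length. In the full lists 23 genes are above 0 and 4 below. In lists of equal length, cut at a −log10 q of 6.42 in ORC2 deletion and 1.31 in WT, 10 are above and 8 below.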

How the data were processed

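CTCF and IgG CUT&RUN was done in 11 libraries: ORC2 deletion (2 CTCF, 2 IgG), ORC2 rescue (2 CTCF, 1 IgG) and WT (2 CTCF, 2 IgG). Per the submitters' processing notes, Bowtie2 2.2.9, SAMtools 1.12, FastQC 0.11.5 and MACS2 were used with build hg38. Settings for peak calling were not stated. Summit lists were deposited with the authors' −log10 q values, read as such because the lowest CTCF values lie just above the −log10 of 0.05. The authors' deposited up and down lists hold other values only, region starts and ends. With 1 list per group and unknown depth, no p-value was computed.

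Summits were counted in RefSeq gene bodies (GRCh38.p14) plus 10 kb, and joined into sites within 500 bp, with 100 bp as an alternative. Counts have 95% Poisson or exact intervals and shares 95% Wilson intervals. The genes and lists were chosen with earlier results of these data known. Values are given for genes with up or down regions, genes differing by 2 or more summits, and the 10 highest summits of each list; some others, such as genes with 1 list standing apart, were named after their values were seen. Counting and joining were tested on simulated data with sites far apart and summits shifted by at most 100 bp. The joining of close neighbours was not tested. Software was SciPy 1.17.1, pandas 2.3.3, NumPy 2.4.6 and matplotlib 3.10.9 under Python 3.11.15.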

Additional observations from a re-analysis of the deposited data

How the results depend on the processing

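Of 72 values under alternative settings, 45 stayed within 1.5 times the main count or within its interval and 27 moved; with no test there was no call to lose. Counts of ORC2 deletion, ORC2 rescue and WT summits were 37, 23 and 22 in gene bodies alone and 138, 97 and 81 within 50 kb. They were 33, 17 and 13 at −log10 q of at least 10, with 31 in WT at 5 and 53 in ORC2 deletion at equal list lengths. The counts of genes that follow are each of 56, with the share of all protein-coding genes under the same setting in brackets. Genes with more ORC2 deletion than WT summits numbered 12 in gene bodies (24.0%) and 10 at equal lengths (13.7%), and genes with fewer numbered 2 at −log10 q of 10 (1.04%) and 8 at equal lengths (14.9%). Genes with an up region numbered 11 in gene bodies (19.6%), 31 within 50 kb (53.3%), 10 at −log10 q of 5 (13.9%), 1 at 10 (2.15%) and 7 at equal lengths (8.42%). A down region was found at 1 gene within 50 kb (3.74%). Shares of sites are set against those of all sites. The share of WT sites with an ORC2 deletion summit was 63.3% against 63.7% with joining within 100 bp and 79.6% against 74.8% at equal lengths. The share of sites gained over WT that had an ORC2 rescue summit was 46.7% against 50.2% at equal lengths. The up list took 15.2% of sites against 15.4% at −log10 q of 5, 2.86% against 4.07% at 10 and 10.3% against 8.23% at equal lengths. These settings keep fewer summits, other windows or narrower joins by construction. Counting sites instead of summits per gene, an alternative added after seeing the data, gave 23 genes with more and 3 with fewer. The alternatives for genes with fewer ORC2 deletion than WT summits were likewise not planned beforehand. No paired analysis was possible because the summit lists carry no replicate numbers, and for the same reason no replicate could be left out. Unknown depth limits every comparison of counts.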

Other observations

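The down region within 50 kb belonged to SOX6 and lay 47002 bp outside the gene on chromosome 11, with an ORC2 rescue summit at 16785574 (−log10 q 8.04), a WT summit at 16785648 (3.16) and none in ORC2 deletion.

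The FOXF1 neighbourhood was looked at after its values were seen. The relatives FOXC2 and FOXL1 on the same chromosome had equal counts in the 3 lists. FOXC2, which acts in mesoderm, had 2 summits in ORC2 deletion, 2 in ORC2 rescue and 2 in WT, and FOXL1, of gut mesenchyme, had 1 in each. The windows of FOXC2 and FOXL1 overlap, so the same summit can count for both, and they are not separate observations. Both had 0 up regions, where FOXF1 had 2.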
